A study of Mus musculus with 9 samples.

Results

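The imprinted Dlk1-Meg3-Mirg cluster of mouse chromosome 12 was examined in MA-10, a steroid-making line derived from a mouse Leydig cell tumour. The gene group was a list of 50 symbols, 46 microRNA genes and the long RNAs Dlk1, Meg3, Rian and Mirg, each represented by the array probe that carries that single gene symbol. Such a probe existed for 42 of the 50, namely 39 microRNA genes, Dlk1, Meg3 and Rian, out of 19938 genes in all, and each had 1 probe. Mirg, Mir410 and Mir433 were covered only by probes that carry several symbols, and Mir493, Mir544, Mir654, Mir758 and Mir770 had no probe listed, so these 8 were not analysed. The members were chosen by the measured AICAR difference, the lower values of several of these microRNA genes with forskolin plus AICAR than with forskolin, so the comparison of forskolin with AICAR against forskolin is a description. No p-value is given for a member in it, and its counts of calls describe the values that chose the members and support nothing.

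The 9 Affymetrix whole-transcript arrays came from cells kept for 1.5 h in serum-free medium with 10 µM forskolin plus 1 mM AICAR (3 arrays), 10 µM forskolin alone (3 arrays) or the DMSO vehicle, called control (3 arrays). Forskolin turns on the enzyme that makes cAMP, and AICAR is converted inside cells to an AMP mimic that activates the kinase AMPK. All cells were of 1 tumour line without any change of genotype in the labels, AICAR was given only together with forskolin, and the labels do not tell if the replicates are independent cultures, and p-values therefore cover no more than the spread among these arrays, which may be technical. Values are log2 summaries per probe, and the number of arrays limits the precision.

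In mouse the cluster holds protein genes active on the paternal chromosome, among them Dlk1 and Rtl1, and non-coding RNA genes active on the maternal chromosome. The maternal RNAs Meg3, Rian and Mirg lie in the same orientation one after another, and most microRNAs and the box C/D small nucleolar RNAs of the region are cut from RNA of that strand. A microRNA is first part of a long primary transcript, from which the nuclear enzyme Drosha frees a hairpin that Dicer cuts to the mature form. A whole-transcript array reads RNA that carries the hairpin sequence, so the values below do not separate primary transcripts, hairpins and mature microRNAs.

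Mature sequences of the microRNA genes with the largest differences are shown to see whether these genes share a seed. The seed is the stretch from base 2 to base 8 by which a microRNA pairs with its targets. The array values do not show whether these mature forms themselves differed. RefSeq (GRCm38.p6) held 74 mature sequences for the 39 measured microRNA genes, with 72 distinct seeds. The seed is in capitals, and the sequences run 5′ to 3′. The first 8 genes below are those with the largest AICAR differences, in order along the cluster.
mmu-miR-665-5p: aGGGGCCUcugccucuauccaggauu
mmu-miR-665-3p: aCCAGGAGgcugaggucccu
mmu-miR-127-5p: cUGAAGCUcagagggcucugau
mmu-miR-127-3p: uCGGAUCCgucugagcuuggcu
mmu-miR-136-5p: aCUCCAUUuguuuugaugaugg
mmu-miR-136-3p: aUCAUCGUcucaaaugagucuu
mmu-miR-379-5p: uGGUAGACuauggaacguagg
mmu-miR-379-3p: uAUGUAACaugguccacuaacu
mmu-miR-380-5p: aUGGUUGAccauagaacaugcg
mmu-miR-380-3p: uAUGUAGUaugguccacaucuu
mmu-miR-323-5p: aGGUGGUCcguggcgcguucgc
mmu-miR-323-3p: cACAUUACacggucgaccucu
mmu-miR-329-5p: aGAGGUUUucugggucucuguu
mmu-miR-329-3p: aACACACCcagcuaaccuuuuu
mmu-miR-377-5p: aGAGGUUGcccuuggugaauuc
mmu-miR-377-3p: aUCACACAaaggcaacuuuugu
No seed was shared among these 16 sequences. The 2 seeds that recurred in the measured cluster were those of miR-379-3p with miR-411-3p and of miR-376c-5p with miR-376b-5p.
mmu-miR-411-3p: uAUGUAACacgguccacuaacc
mmu-miR-376c-5p: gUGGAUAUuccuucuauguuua
mmu-miR-376b-5p: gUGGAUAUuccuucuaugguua
The hairpins of Mir127 and Mir379, the pair of genes from opposite sides of Rian with the lowest values relative to forskolin, are given next with their mature arms in capitals. Mir127 lies at chr12:109592846-109592915 on the plus strand, inside the span of Rtl1 and known to be antisense to it, and Mir379 at chr12:109709060-109709125 on the plus strand, between Rian and Mirg (RefSeq, GRCm38.p6).
Mir127: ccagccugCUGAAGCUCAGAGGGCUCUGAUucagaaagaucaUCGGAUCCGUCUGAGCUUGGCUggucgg
Mir379: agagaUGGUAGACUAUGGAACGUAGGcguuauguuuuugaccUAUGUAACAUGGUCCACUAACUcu

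The deposited values, already processed by the submitters, were close in scale, with array medians between 7.14 and 7.19. This tells nothing of the arrays before that processing. Of 12 Leydig cell markers 10 were measured, with control means from 4.86 (Hsd17b3, an enzyme of mature testosterone-making Leydig cells) to 12.74 (Inha, an inhibin subunit), and Cyp11a1, the cholesterol side-chain cleavage enzyme, at 11.70. Some markers of other cell types had high values too, such as the endothelial Cdh5 at 11.97 and the Sertoli markers Clu at 11.70 and Sox9 at 9.88, so the marker values alone do not settle the cell type that the labels give. With AICAR added to forskolin, 4 of the 10 Leydig markers (Star, Hsd3b1, Scarb1 and Fdx1) fell in limma and 0 rose, and with forskolin alone 3 (Star, Scarb1 and Fdx1) rose and 0 fell. Of all genes, 4.12% were called lower and 0.978% higher with AICAR added. With forskolin alone, 0.497% were called higher and 0.196% lower. The first component of the deviations from group means (46.0% of their sum of squares) placed the AICAR arrays far from each other, replicate 1 at −0.60 and replicate 3 at 0.56, and counts are also given without replicate 1. Replicate 3 of forskolin (−0.34) and of control (−0.31) lay on the side of AICAR replicate 1. The other forskolin and control arrays lay on the opposite side, from 0.11 to 0.23. What this component stands for was not tested. Of 29 measured markers of 5 other testicular cell types, none was called higher and 2 (Sox9 and Cd68) were called lower with AICAR added, at log2 differences of −0.46 and −0.39 in limma (adjusted p = 0.0013 and 0.0068). The mean over the 7 Sertoli markers lay between 8.32 and 8.41 with AICAR, 8.37 and 8.39 with forskolin, and 8.41 and 8.44 in control. The mean over the 6 macrophage markers lay between 5.85 and 6.01, 5.95 and 5.98, and 5.90 and 5.92 in the same groups. Their part in the results below was not tested.

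Dlk1, active on the paternal chromosome and first in the order of the cluster, encodes a membrane protein with EGF-like repeats that acts on Notch signalling. Its log2 values were 12.55, 12.60 and 12.67 with forskolin and AICAR, 12.60, 12.60 and 12.60 with forskolin, and 12.57, 12.62 and 12.54 in control. The 3 groups overlapped, and the difference of AICAR with forskolin from forskolin was 0.01 (SE 0.04, 95% interval −0.08 to 0.10). Meg3, the first maternal non-coding RNA after Dlk1, had 11.69, 11.69 and 11.55 with forskolin and AICAR, 11.65, 11.69 and 11.69 with forskolin, and 11.85, 11.69 and 11.69 in control. These groups overlapped too, at an AICAR difference of −0.03 (SE 0.06). The deposited Meg3 value was the same in 5 of the 9 arrays, and repeated values of this kind occurred in 50.2% of all probes.

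Rian, the next long maternal RNA and the host of many small nucleolar RNAs, had lower values with AICAR. Its log2 values were 9.12, 9.02 and 9.02 with forskolin and AICAR, 9.74, 9.73 and 9.55 with forskolin, and 9.74, 9.55 and 9.63 in control. Every AICAR array lay below every other array, 1.54-fold below forskolin (log2 difference −0.62, SE 0.07) and 1.50-fold below control (−0.59, SE 0.07). In bulk RNA, fewer cells with a transcript and less of it per cell cannot be told apart. Whether Rian and Meg3 differ in their response was not tested.

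**Figure D1:**
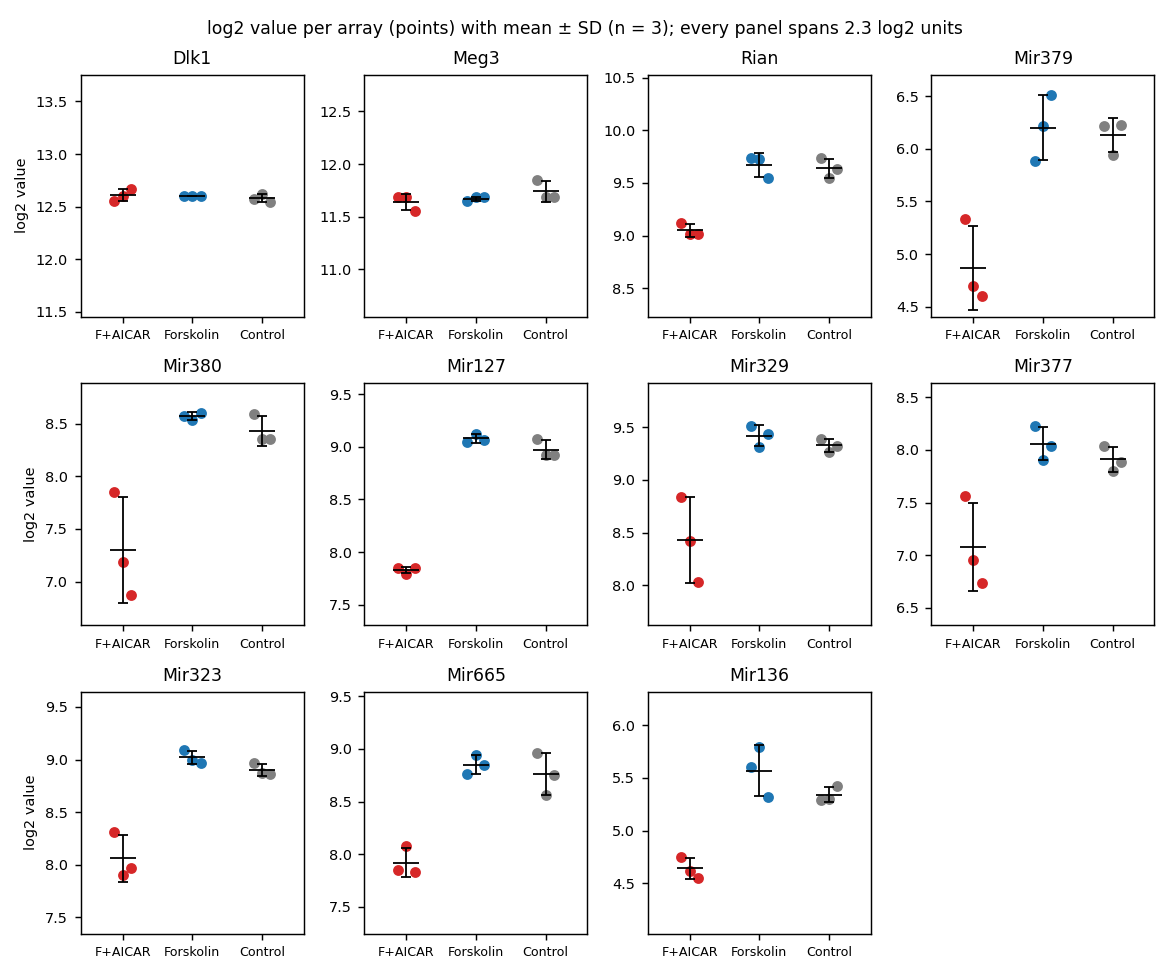
Log2 values (vertical axis, log2 units, every panel on the same span) of Dlk1, Meg3, Rian and the 8 microRNA genes with the largest AICAR differences, in the 3 arrays of each group, with the mean and SD as bars. Dlk1 and Meg3 overlap between groups, while Rian and each of the 8 microRNA genes have all 3 AICAR arrays below the 6 others.

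Among the microRNA genes, those before Rian, all 7 inside the RefSeq span of Rtl1, had unlike AICAR differences although they are neighbours. Mir127, known in mouse as a microRNA antisense to and active against Rtl1, had 7.85, 7.79 and 7.85 with forskolin and AICAR, 9.05, 9.12 and 9.06 with forskolin, and 9.07, 8.92 and 8.92 in control. All 3 AICAR arrays lay below the 6 others, at a difference of −1.25 from forskolin (2.38-fold lower, SE 0.05). Mir136, on the same strand beyond Mir434, had 4.75, 4.62 and 4.55 with forskolin and AICAR, 5.60, 5.79 and 5.32 with forskolin, and 5.29, 5.30 and 5.42 in control. Its AICAR arrays lay below the 6 others as well (−0.93 from forskolin, SE 0.11). By contrast Mir431 and Mir434, which lie in the same stretch, had AICAR differences of −0.04 (SE 0.10) and −0.08 (SE 0.10) from forskolin, and each overlapped the forskolin arrays. Mir434 was dim, at 4.33 to 4.82 over the arrays, and how far it stood above background is unknown. Mir431 had the same rounded value, 8.06, in arrays of all 3 groups. Whether these genes differ from Mir127 and Mir136 in their response was not tested. The AICAR arrays of Mir434 lay below its control arrays, at a difference of −0.15.

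Closer to Meg3, Mir665 had 7.85, 8.08 and 7.83 with forskolin and AICAR, 8.76, 8.94 and 8.85 with forskolin, and 8.96, 8.56 and 8.75 in control. That was 1.91-fold below forskolin (−0.93, SE 0.10), with no overlap. Mir337 was lower by a smaller amount (−0.38, SE 0.05, no overlap), and Mir673 overlapped (−0.19, SE 0.11). Of the 2 measured microRNA genes inside Rian, Mir341 differed by −0.42 (SE 0.09) and Mir370 by −0.13 (SE 0.05), both without overlap. The host itself had −0.62.

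The array of microRNA genes from Mir379 onward holds 30 of the 39 measured, and its first members had the lowest values relative to forskolin. Mir379, which opens the array, had 5.33, 4.70 and 4.60 with forskolin and AICAR, 5.88, 6.22 and 6.51 with forskolin, and 6.22, 5.94 and 6.23 in control. Mir380 had 7.85, 7.19 and 6.87 with forskolin and AICAR, 8.57, 8.53 and 8.60 with forskolin, and 8.59, 8.35 and 8.35 in control. The AICAR arrays of both genes were spread widely, with replicate 1 the highest, yet lay below all others (log2 differences from forskolin −1.33 and −1.26, SE 0.20 each).

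Mir323 had 8.31, 7.90 and 7.97 with forskolin and AICAR, 9.09, 9.0 and 8.97 with forskolin, and 8.97, 8.87 and 8.86 in control. Mir329 had 8.84, 8.42 and 8.03 with forskolin and AICAR, 9.51, 9.31 and 9.44 with forskolin, and 9.39, 9.27 and 9.32 in control. Their log2 differences from forskolin were −0.96 (SE 0.09) and −0.99 (SE 0.16), again without overlap. Mir411, which carries the seed it shares with miR-379-3p, differed by −0.82 (SE 0.08), and Mir299a, which lies among these genes, by −0.11 (SE 0.05), both without overlap.

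Further along, differences were mostly smaller. The first 6 measured genes of this array had a median log2 difference of −0.98 from forskolin, and the other 24 a median of −0.27 with a range from −0.97 to 0.15. The cut after 6 genes was not planned and lies where the differences become smaller, between Mir329 (−0.99) and Mir494 (−0.23). The contrast of these medians is therefore a description only. At least 1.5-fold lower among these 24 were Mir543 (−0.66, SE 0.08) and Mir377, and Mir495 followed at −0.57 (SE 0.12). Mir377, inside the Mirg span, had 7.56, 6.95 and 6.74 with forskolin and AICAR, 8.23, 7.90 and 8.04 with forskolin, and 8.04, 7.80 and 7.89 in control (−0.97 from forskolin, SE 0.18). Its neighbours in the Mirg span had differences between −0.33 (Mir541 and Mir369) and −0.09 (Mir154). The Mir376 genes, related in sequence, had −0.46 (Mir376c, SE 0.15), −0.44 (Mir376b, SE 0.09) and −0.46 (Mir376a, SE 0.16). The gaps between these differences are smaller than their errors. Mir134, known in rat neurons for limiting dendritic spine growth, differed by −0.04 (SE 0.08).

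The 3 microRNA genes whose AICAR difference was above 0 all belonged to this array. Mir666 had 8.38, 8.67 and 8.67 with forskolin and AICAR, 8.48, 8.41 and 8.37 with forskolin, and 8.41, 8.37 and 8.25 in control, with replicate 1 inside the range of forskolin. Mir539 had 6.94, 6.52 and 6.59 with forskolin and AICAR, 6.66, 6.51 and 6.62 with forskolin, and 6.59, 6.48 and 6.52 in control. Mir487b had 7.71, 7.60 and 7.66 with forskolin and AICAR, 7.60, 7.58 and 7.57 with forskolin, and 7.63, 7.52 and 7.37 in control. All 3 overlapped forskolin, at differences of 0.15 (SE 0.08), 0.09 (SE 0.10) and 0.07 (SE 0.06).

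**Figure D2:**
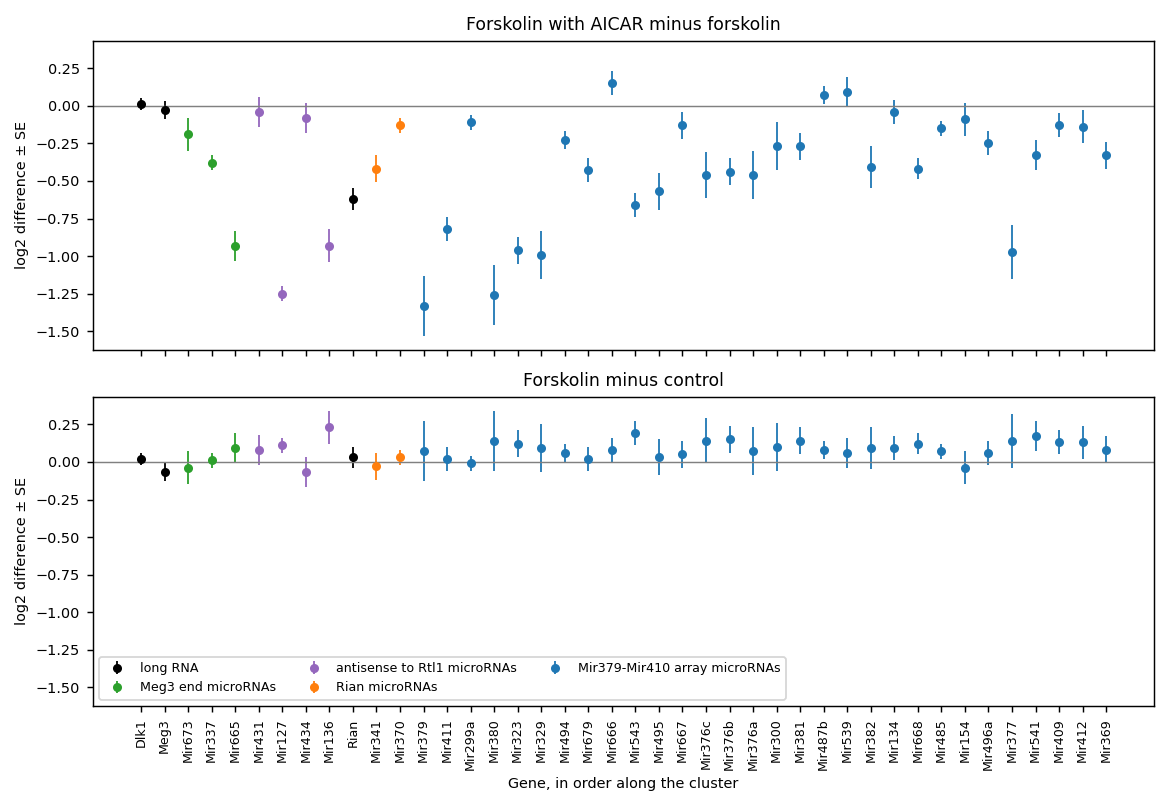
Log2 differences with their standard errors for the 42 measured genes, in order along the cluster (horizontal axis) and coloured by segment, for forskolin with AICAR minus forskolin (top) and forskolin minus control (bottom). The top panel reaches −1.33 at Mir379 with neighbours near 0 such as Mir431 and Mir299a, while the bottom panel stays between −0.07 and 0.23.

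Counted over the cluster as a description of the comparison that chose it, 38 of 42 genes were below their forskolin level with AICAR (8130 of 19938 genes overall) and the median log2 difference was −0.33 (0.02 overall). The AICAR and forskolin arrays did not overlap for 23 of the 42, all lower, where 12.2% of all genes were lower and 11.5% higher without overlap. In limma, a linear model over all genes with Benjamini-Hochberg adjustment, 17 were called lower and 0 higher at an adjusted p under 0.05, beside 4.12% of all genes called lower and 0.978% called higher. At least 1.5-fold lower were 11 of the 42, beside 0.692% of all genes. The 260 genes named for microRNAs outside the cluster (4 of them host genes) had a median of 0.04, with 12 called lower and 5 higher. No test was made of the difference between these groups.

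Across the 39 microRNA genes the AICAR difference had a Pearson r of −0.01 with the mean level of the probe (n = 39) and of 0.13 with the GC content of the hairpin (n = 38). These points share the same arrays. The hairpins of the 8 genes with the largest differences had GC contents of 40.3% to 57.1% (median 42.4%), and those of the other 30 with a RefSeq hairpin 29.1% to 62.0% (median 45.3%).

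**Figure D3:**
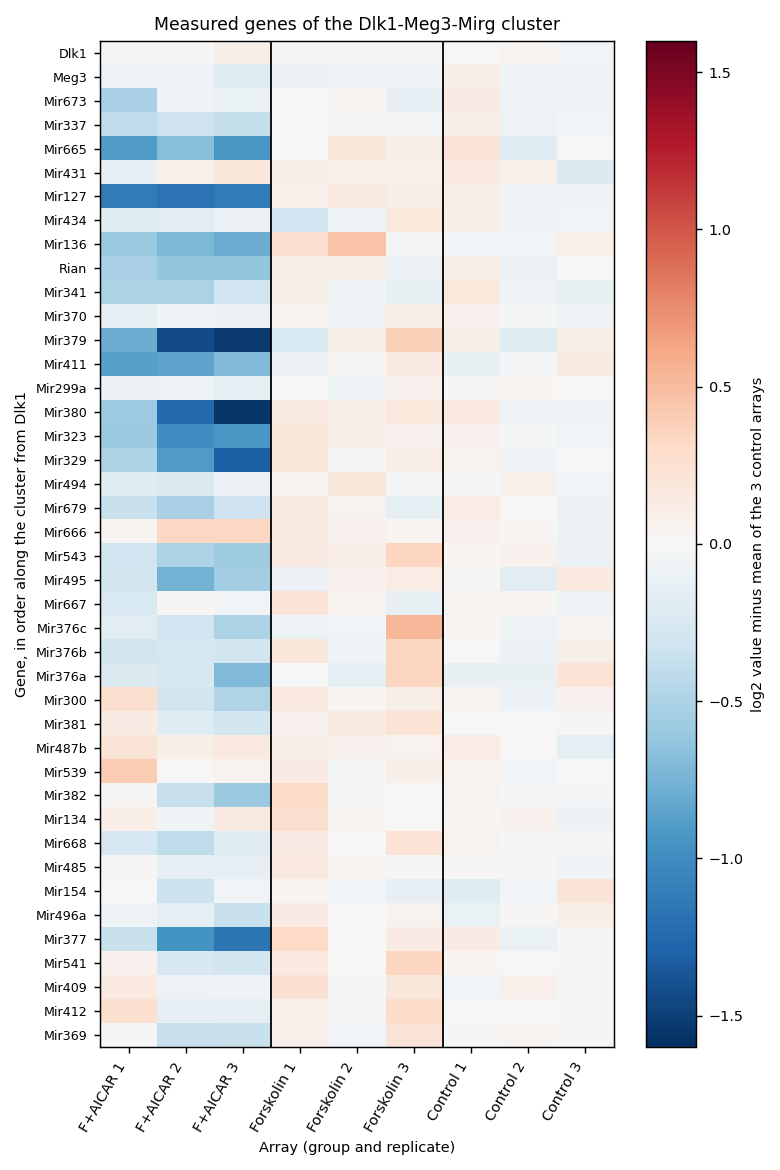
Log2 value minus the mean of the 3 control arrays (colour) for the 42 measured genes in order along the cluster (rows) in each of the 9 arrays (columns, by group). The blue cells of the AICAR columns are deepest at Mir379, Mir127 and Mir380, which differ from control by −1.26, −1.14 and −1.12, with Mir299a pale between its neighbours at −0.12, and the forskolin and control columns stay pale.

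The spread among AICAR replicates was not alike along the cluster. The unplanned cut of the Mir379 array is used again here. For its first 6 genes, the median distance from the control mean was −0.58, −0.96 and −1.12 in AICAR replicates 1, 2 and 3, and for the other 24 genes −0.01, −0.26 and −0.30. On the other side of Rian, all within the Rtl1 span, the medians of the 4 genes from Mir431 to Mir136 were −0.38, −0.44 and −0.44, and those of the 3 genes nearer Meg3 (Mir673, Mir337 and Mir665) were −0.52, −0.33 and −0.38. Replicate 1 was above the mean of replicates 2 and 3 for 25 of the 30 genes of the Mir379 array, by up to 0.82 at Mir380, and for 2 of the 9 microRNA genes before it. Over all genes the median of this distance was −0.02. Without AICAR replicate 1, limma called 25 genes of the cluster lower and 1 higher (Mir666) against forskolin, all 17 earlier calls among them, but over all genes it then called 1647 lower and 1677 higher, against 822 and 195 with every array. Without AICAR replicate 2 it called 12 of the cluster lower, and 448 lower and 80 higher over all genes. Of the 8 microRNA genes with the largest differences, Mir377 was not called without AICAR replicate 2 or forskolin replicate 1 or 3, or with only the arrays of the groups compared.

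**Figure D4:**
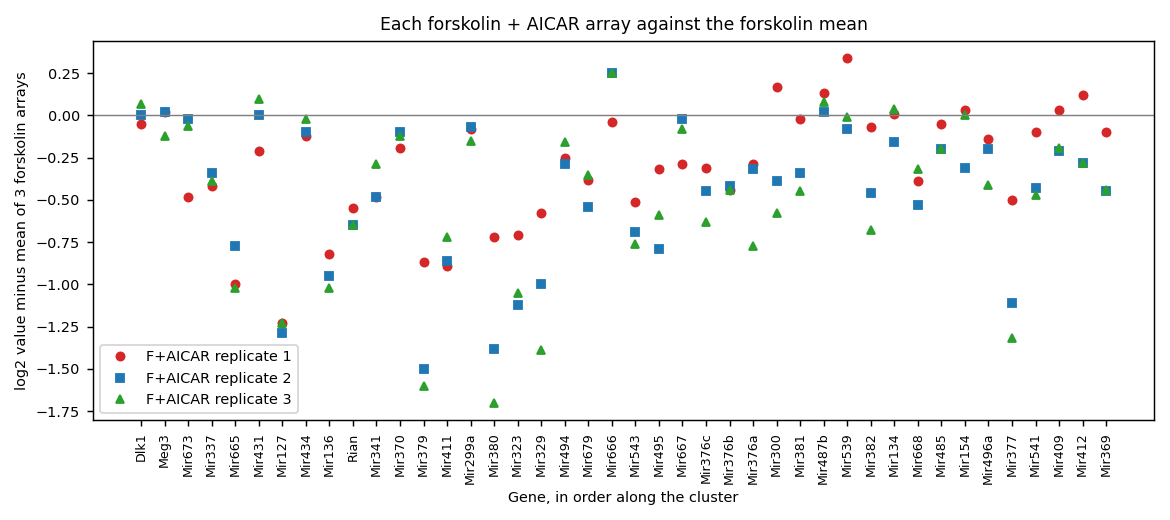
Log2 value of each forskolin with AICAR array minus the mean of the 3 forskolin arrays, for the 42 measured genes in order along the cluster. The 3 arrays nearly coincide at Mir127 and Rian, and replicate 1 lies above the other two at Mir379, Mir380, Mir329 and Mir377.

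Forskolin alone was the comparison that the choice of genes did not name, although it shares the 3 forskolin arrays with the one that did. No gene of the cluster was called in either direction in limma, where 0.497% of all genes were called higher and 0.196% lower, and the smallest adjusted p of the 42 was 0.64 (Mir543). Of the 42, 1 was higher and 0 lower at an unadjusted p under 0.05, where 741 and 709 of all 19938 genes were. Log2 differences ran from −0.07 to 0.23 with a median of 0.08 (0.00 over all genes), and 36 of 42 were above 0 (10439 of 19938 overall). The arrays did not overlap for 4 of the 42 (Mir323, Mir543, Mir381 and Mir412), all higher with forskolin, where 6.85% of all genes were higher and 7.13% lower without overlap.

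The largest differences with forskolin were those of Mir136, Mir543, Mir541 and Mir376b. Mir136, with the array values given above, differed by 0.23 (SE 0.11), and the groups overlapped (limma adjusted p = 0.70). Mir543 had 6.70, 6.67 and 6.90 with forskolin against 6.59, 6.63 and 6.46 in control, and 6.24, 6.06 and 5.99 with AICAR added. Forskolin lay just above control (0.19, SE 0.08, limma adjusted p = 0.64). Mir541 had 5.98, 5.84 and 6.17 with forskolin against 5.86, 5.83 and 5.80 in control, and 5.90, 5.57 and 5.53 with AICAR added (forskolin difference 0.17, limma adjusted p = 0.84). Mir376b had 5.41, 5.16 and 5.58 with forskolin against 5.23, 5.14 and 5.32 in control, and 4.94, 4.96 and 4.94 with AICAR added (0.15, limma adjusted p = 0.84). The 95% intervals of the forskolin differences were −0.07 to 0.11 for Dlk1, −0.20 to 0.06 for Meg3 and −0.11 to 0.18 for Rian.

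Because forskolin acts through cAMP, the promoter windows of the long RNAs were searched for the cAMP response element TGACGTCA, the palindrome bound by CREB, and 1 of the 2 Meg3 windows held it. The 300 bases around the start that RefSeq gives for Meg3 (GRCm38.p6, chr12:109540746-109541045, plus strand) are shown with that motif in capitals.
Meg3 promoter: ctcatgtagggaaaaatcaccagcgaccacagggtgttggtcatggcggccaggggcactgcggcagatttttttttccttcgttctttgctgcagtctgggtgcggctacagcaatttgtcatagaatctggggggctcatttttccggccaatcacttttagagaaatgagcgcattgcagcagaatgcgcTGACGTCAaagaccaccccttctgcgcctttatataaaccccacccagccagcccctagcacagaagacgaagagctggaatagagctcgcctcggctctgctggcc
The motif starts 57 bases before the start of the transcript. The motif reads the same on both strands, and 588 of 32851 RefSeq promoter windows of this length (1.79%) hold it. It was not in the windows of Dlk1, Rian or Mirg or in that of a second Meg3 start. A match of letters is a description of the window and not a measured site. The forskolin difference of Meg3 was −0.07 (SE 0.06, limma adjusted p = 0.91).

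Against control, cells given forskolin and AICAR are given as a description, since this comparison shares its AICAR arrays with the one that chose the genes. In limma 16 of 42 genes were called lower and 0 higher, beside 5.68% and 3.04% of all genes, and all 16 were among the 17 lower against forskolin, Mir376b being the one left out. Without AICAR replicate 2 the count was 9, with Mir380, Mir329 and Mir377 among those lost, and over all genes 525 were lower and 157 higher, against 1133 and 606 with every array. The same 3 were lost with only the arrays of the groups compared. The AICAR and control arrays did not overlap for 24 of the 42, all lower, where 14.3% of all genes were lower and 15.2% higher without overlap. The AICAR arrays lay below all 6 others for 22 of the 42 genes, beside 9.03% of all genes. The deepest differences from control were those of Mir379 (−1.26, SE 0.20), Mir127 (−1.14, SE 0.05) and Mir380 (−1.12, SE 0.20), and the median over the cluster was −0.24 (0.02 over all genes).

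Of 6 measured neighbours outside the list, Mir540, beside Mir665, was called lower in limma with AICAR added (−0.40, SE 0.06), and the other 5 were not called. Of all genes, 4.12% were called lower. Mir540 is a microRNA gene of the same stretch, seen in the comparison that chose the members, so its call is a description and supports nothing. Among the other 5, Rtl1, the paternal protein gene, had −0.23 (limma adjusted p = 0.067) and Dio3, the deiodinase gene at the far end, 0.20 (adjusted p = 0.43). The only other genes with a single-symbol probe between Dlk1 and Dio3 were 3 small nucleolar RNA genes, looked at after their values were seen and so without a test. DQ267101, inside Rian, had 5.76, 5.66 and 5.67 with forskolin and AICAR, 7.04, 7.09 and 7.45 with forskolin, and 7.07, 6.92 and 7.07 in control. Its AICAR arrays lay more than 1 log2 unit below all others (−1.49 from forskolin). DQ267102, also inside Rian, and AF357341, between Rian and Mir379, differed by −0.63 and −0.62 from forskolin without overlap.

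Genes of the microRNA-making machinery and regulators of the locus were examined next. Of 23 measured genes of microRNA processing, 0 were called with AICAR added to forskolin in limma (1 higher and 3 lower at an unadjusted p under 0.05), with Dicer1 nearest (−0.13, adjusted p = 0.12), and 0 with forskolin alone (none at an unadjusted p under 0.05). Against control, 3 of the 23 passed in limma, where 5.68% of all genes were called lower and 3.04% higher. Dgcr8, the partner of Drosha (−0.26, SE 0.06, adjusted p = 0.029), and Dicer1 (−0.20, SE 0.04, adjusted p = 0.025) fell with forskolin and AICAR, and Ago2, which binds mature microRNAs, rose (0.22, SE 0.05, adjusted p = 0.028). Of 24 genes that act on imprinting or on transcription of the locus, 3 passed with AICAR added to forskolin. Of all genes, 4.12% were called lower and 0.978% higher in that comparison. The Polycomb cofactor Jarid2 (0.20, SE 0.03, adjusted p = 0.0091) and Mef2c (0.17, SE 0.04, adjusted p = 0.035) rose, and the histone methyltransferase gene Setdb1 fell (−0.23, SE 0.05, adjusted p = 0.026). MEF2 factors are known in rat neurons to drive the Mir379-Mir410 array. The other 21 did not pass, among them Mef2a (0.00, adjusted p = 0.98), Mef2d (0.00, adjusted p = 1.0), Dnmt1 (−0.05, adjusted p = 0.51) and Zfp57 (0.03, adjusted p = 0.73). Against control, Jarid2 rose with forskolin and AICAR (0.19, SE 0.03, limma adjusted p = 0.0094), 4 of the 24 fell (Setdb1, Uhrf1, Ctcf and Ezh2, at log2 differences from −0.30 to −0.14), and Mef2c did not pass (0.06, adjusted p = 0.29). With forskolin alone 0 of these 24 were called (2 higher and 2 lower at an unadjusted p under 0.05).

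Of 23 measured from other imprinted regions, Plagl1, a zinc finger gene that acts in a network of imprinted genes in mouse, fell with AICAR added (−0.30, SE 0.04, limma adjusted p = 0.0034). The other 22 did not pass, and 4.12% of all genes were called lower. At an unadjusted limma p under 0.05, 9 of the 23 were higher and 2 lower, Plagl1 included, beside 2435 and 2366 of all 19938 genes. Plagl1 had 9.15, 9.10 and 9.21 with forskolin and AICAR, 9.41, 9.48 and 9.49 with forskolin, and 9.23, 9.29 and 9.30 in control. Against control, forskolin with AICAR left Plagl1 uncalled (−0.12, limma adjusted p = 0.10), while Phlda2 and Cdkn1c, which restrain placental and fetal growth in mouse, rose (0.21 and 0.17, adjusted p = 0.045 and 0.047) and Impact fell (−0.20, adjusted p = 0.042). Of all genes, 5.68% were called lower and 3.04% higher in that comparison. With forskolin alone 0 of the 23 were called (2 higher and 1 lower at an unadjusted p under 0.05). The median of the 23 with AICAR added was 0.09, beside 0.02 over all genes and −0.33 over the Dlk1-Meg3-Mirg cluster.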

How the data were processed

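The authors deposited log2 values per probe set for 9 arrays, made with RMA and Partek per the submitters' processing notes, with versions and settings not given in the sources used here. RMA in its usual form includes a background correction and a summary of probes by median polish, among other steps, and can compress differences of dim probes. The control titles speak of no treatment, and the treatment field, which names DMSO, was followed. Of 35557 probes, 21789 carry 1 gene symbol in GEO's platform annotation. The probe with the highest mean over the arrays stood for a gene, which left 19938 genes, with no filter on dim probes and no detection calls. All arrays entered 1 model in limma 3.58.1 (R 4.3.3), two-sided, adjusted by Benjamini-Hochberg over all genes of a comparison, and tested on simulated data. Genes were called at an adjusted p under 0.05.

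The members and lists were chosen with earlier results of these data known. Array values were given for the long RNAs, the 8 microRNA genes with the lowest AICAR differences, up to 4 with one above 0, and the 4 with the largest forskolin difference. List genes named were called ones (up to 4) or the one nearest a call, with further uncalled genes chosen after their values were seen. Sequences and gene order came from RefSeq tables of GRCm38.p6, and the array files name no genome build. Alternatives were a replicate block, other normalizations, a filter at a mean of 5, other priors, array weights, fits of 2 groups, other probe choices, a threshold of 0.1 and each array left out. Python 3.11.15 with pandas 2.3.3, numpy 2.4.6 and matplotlib 3.10.9 was used.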

Additional observations from a re-analysis of the deposited data

How the results depend on the processing

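The median log2 difference over the cluster kept its sign in all 3 comparisons under every alternative run. Leaving out 1 array gave −0.41 to −0.27 for AICAR with forskolin against forskolin, 0.07 to 0.11 for forskolin against control and −0.30 to −0.20 for AICAR with forskolin against control. In the same order, the cluster's genes called lower numbered 12 to 25, 0 to 0 and 9 to 21, those called higher 0 to 1, 0 to 0 and 0 to 1. All genes called lower numbered 425 to 1647, 13 to 45 and 525 to 2066, and all genes called higher 62 to 1677, 60 to 99 and 123 to 2675, the highest AICAR counts without AICAR replicate 1. With array weights, 27 genes of the cluster were lower and 1 higher against forskolin and 1 higher against control. All genes called with array weights were 2654 lower and 3075 higher against forskolin, 3041 and 3578 against control, and 224 and 212 for forskolin against control. Same-numbered arrays deviated with correlations of −0.41, 0.08 and −0.34 between AICAR and forskolin, −0.37, 0.01 and −0.40 between AICAR and control, and 0.24, 0.01 and 0.33 between forskolin and control, so not every pair passed 0.1 and the numbers were not taken to pair the arrays, although those of forskolin and control were all above 0. The highest correlations were between unlike numbers, AICAR replicate 1 with control replicate 3 (0.49) and with forskolin replicate 3 (0.45). With the replicate block, 16 genes of the cluster were lower against forskolin and 16 against control, and over all genes 517 lower and 66 higher against forskolin, 679 and 195 against control, and 16 lower for forskolin against control. With only the arrays of the groups compared, all genes called were 446 lower and 50 higher against forskolin and 609 and 149 against control. At a threshold of 0.1 they were 1239 and 581, then 1871 and 1885, with 67 lower for forskolin against control and 1 gene of the cluster higher against control. Quantile normalization gave 389 higher against forskolin, and the trended and robust prior 69 lower for forskolin against control. The cause of these shifts was not tested. For the single genes named, 918 values under the alternatives were looked at. In the AICAR comparisons, 4 log2 differences moved by more than the spread between replicates. These were Mir127 against forskolin with quantile normalization and with array weights, Mir487b against forskolin with array weights, and Mir376b against control with quantile normalization. None changed sign after a call. Forskolin against control was judged by calls only, and none was gained. Many of the 918 values could not move, so the count is no measure of stability. A log2 difference stays the same with the replicate block, the filter, other priors and fits of only the compared groups. It also stays the same with other probe choices and without an array of the third group. In the AICAR comparisons size alone was judged, and calls of Mir376b, Mir377, Mir380 and Mir329 were lost under some alternatives without such a move. No detection values were given, so how far dim probes such as those of the Mir376 genes stood above background is unknown.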
